A study of Mus musculus with 6 samples.

Results

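The genes described here are 31 genes that mark projection neurons of the cerebral cortex by layer, of 27179 genes in the deposited table. They were chosen by gene symbol, as known markers of deep layers, of upper layers or of projection neurons in general, and all 31 are listed in the table. The tissue was the cerebral cortex of C57BL/6N mouse embryos at E18.5, and polyadenylated RNA was sequenced. The Control group (3 libraries, called FF1, FF2 and FF4 after their columns) was Cap1 flx/flx, and the CAP1-KO group (3 libraries, FCRE3, FCRE4 and FCRE5) was Cap1 flx/flx with the Nestin-Cre transgene. CAP1 is an actin-binding protein that helps to turn over actin filaments, and the series asks what its loss does to gene expression in neurons. Both groups carried the flanked Cap1 alleles. The Nestin promoter drives Cre in neural progenitors, so the neurons and glia that descend from them are the cells meant to lose CAP1. No library carried Cre without the flanked alleles, so an effect of the transgene cannot be told apart from an effect of CAP1 loss.

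As background, projection neurons are the glutamatergic neurons that send axons out of the cortex or across to the other hemisphere. They are born from radial glia and intermediate progenitors in sequence, deep layers (V and VI) first and upper layers (II to IV) later, and each layer is built by transcription factors that favour one fate and hold back others. Tbr1, Fezf2, Bcl11b and Sox5 set the deep layer fates. Cux1, Cux2, Rorb and the Pou3f family mark the upper layers, and Neurod2, Neurod6, Bhlhe22 and Emx1 belong to projection neurons or their lineage in general. Of the 31 genes, 12 were placed in a deep layer group, 10 in an upper layer group and 9 in a group of several layers, by textbook knowledge.

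The libraries held between 32443864 and 36302598 reads, and 1 CPM, the authors' library-scaled unit of reads, stood for between 31.2 and 37.3 reads. Cap1 was at 194, 193 and 166 CPM in FF1, FF2 and FF4 and at 86.6, 85.9 and 82.9 CPM in FCRE3, FCRE4 and FCRE5. It fell by 1.10 on the log2 scale (SE 0.07), in the direction the labels give. Which exons the flanked alleles remove, and whether the remaining reads come from them, was not analysed here. Xist, which is transcribed from the inactive X chromosome of females, was at 0.577, 2296 and 2.05 CPM in Control and at 2605, 2398 and 2653 CPM in CAP1-KO. FF1 and FF4 were therefore male by this gene and the other 4 libraries female. FF4 stood apart from FF1 and FF2 in forebrain regional genes, as given below, so the comparison is given with FF4, without it and against it alone. All library values below run in the order FF1, FF2, FF4 for Control and FCRE3, FCRE4, FCRE5 for CAP1-KO.

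Against all 3 Control libraries none of the 31 layer genes passed limma's test at an adjusted p of 0.05. With FF4 left out, 23 of the 31 passed as lower in CAP1-KO, Foxp2 passed as higher and 7 did not pass. Of all genes, 18.9% were then called lower and 9.36% higher. FF4 was set apart because it differed from FF1 and FF2 in forebrain genes, so the count without it is not independent support. In the comparison with all 3 Control libraries, the median log2 fold change of the 31 was -0.28 on the log2(CPM + 1) scale. Over the 13885 genes tested it was -0.01. Of the 31 values, 29 (93.5%) were negative, beside 51.7% of all genes. Of all genes tested, 0.403% passed as lower and 0.562% as higher. At an unadjusted p under 0.05, 13 of the 31 were lower and 1 was higher, where 15.3% and 7.74% of all genes were. The second tool, limma-voom on recovered reads, also called 0 of the 31. With libraries scaled to total reads, 1 of the 31 passed, Ldb2 (log2 fold change -0.32, adjusted p = 0.0441), where 0.389% of all genes were called lower. In bulk tissue, fewer cells of a type and less RNA per cell cannot be told apart.

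Leaving out FF4 changed the count of layer genes called. When FF1 and FF2 were the only Control libraries, 23 of the 31 fell and 1, Foxp2, rose, with a median of -0.42, where 18.9% of all genes were called lower and 9.36% higher. The 7 that did not pass were Tle4, Cux1, Rorb, Unc5d, Lmo3, Lmo4 and Id2. Leaving out any other single library gave 0 of the 31. Against FF4 alone, with the lone Control library assumed to vary like the CAP1-KO libraries, 0 of 31 passed, the median was -0.03 and 16 of 31 values were negative. Of all genes, 0.0864% were called lower and 0.31% higher in that comparison. At an unadjusted p under 0.05, 2 of the 31 were lower than FF4 (Ldb2, Cdh13) and 4 were higher (Nfia, Nfib, Pou3f3, Unc5d), beside 5.04% and 3.28% of all genes. When FCRE4 was also left out, 2 were called lower than FF4 (Ldb2, Plxnd1) and 4 higher (Sox5, Nfia, Nfib, Pou3f3), where 5.04% and 2.34% of all genes were. In the fit without FCRE4 each gene's own spread comes from FCRE3 and FCRE5 alone, so its calls carry little weight. All of these comparisons share libraries and are not independent of each other. By Xist, FF4 was male and every CAP1-KO library female. Sex and genotype therefore cannot be told apart in the comparison with FF4 alone.

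**Figure D1:**
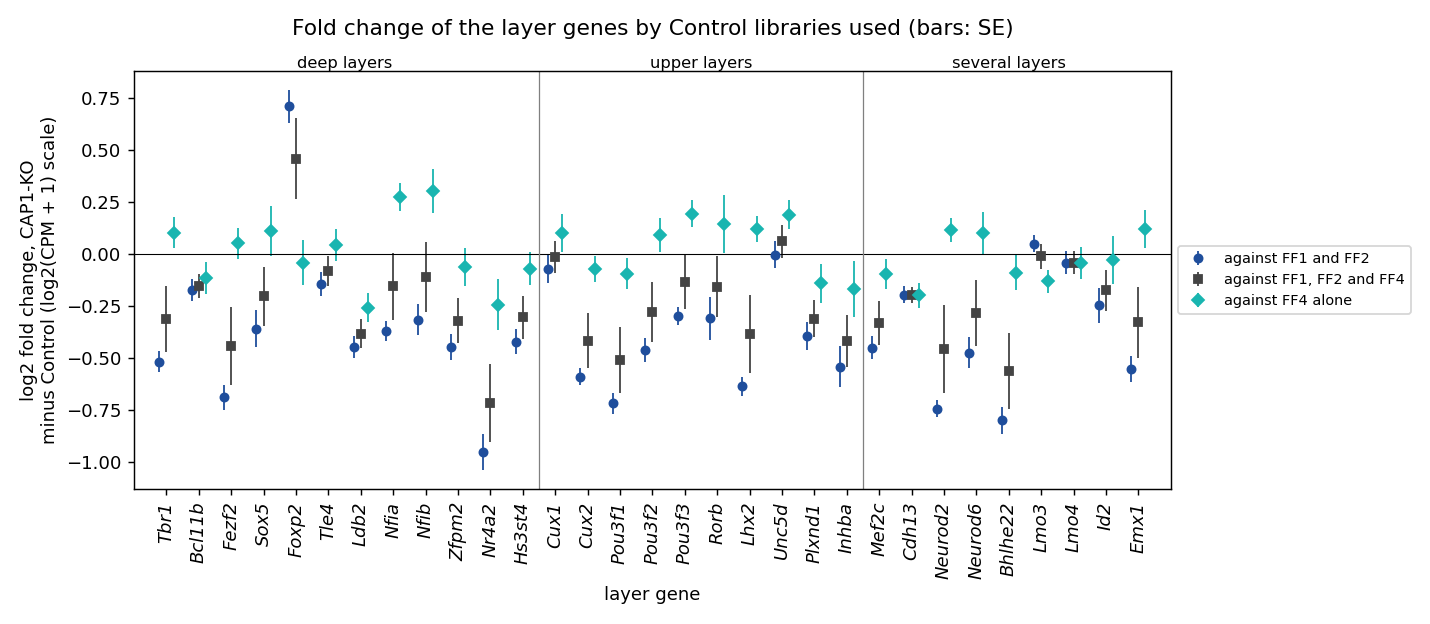
Log2 fold change of each of the 31 layer genes (CAP1-KO minus Control, log2(CPM + 1) scale, bars are SE) against FF1 and FF2 (circles), all 3 Control libraries (squares) and FF4 alone (diamonds). Most circles lie well below 0 while the diamonds scatter around it, with a median of -0.42 against FF1 and FF2 and of -0.03 against FF4.

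In 10 of the 31 genes (32.3%) every CAP1-KO library was below every Control library, FF4 included, and in none was every CAP1-KO library above. Of all genes tested, the groups did not overlap in 14.6% with CAP1-KO lower and in 11.1% with CAP1-KO higher. The 10 were Bcl11b, Ldb2 and Nr4a2 of the deep layers, Cux2, Pou3f1, Plxnd1 and Inhba of the upper layers, and Mef2c, Cdh13 and Bhlhe22 of several layers. Set against FF4 alone, all CAP1-KO libraries were lower in 11 genes (35.5%), which are the same 10 and Lmo3, and higher in 8 (25.8%). For all genes these shares were 27.9% and 28.0%. The 8 above FF4 were Tbr1, Nfia, Nfib, Pou3f3, Lhx2, Unc5d, Neurod2 and Emx1.

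Promoters are shown for 3 genes that carry the different patterns: Neurod2, with the smallest p against FF1 and FF2, Nr4a2, with the largest log2 difference of the 31 against all Control libraries, and Nfia, at the smallest p against FF4. Each is 300 bases long, from 250 before the start to 50 after it, in RefSeq GRCm38.p6, written 5′ to 3′ in the gene's direction. A single start was used per gene, and that of Nfia lies inside the gene's span (chr4:97578066-98118876), not at its outer end. Capitals mark the E-box CANNTG, the site read by helix-loop-helix proteins such as the Neurod factors, which reads the same on both strands and was searched on both. The Neurod2 promoter (chr11:98329596-98329895, minus strand) holds 3 E-boxes, the Nr4a2 promoter (chr2:57123954-57124253, minus strand) none, and the Nfia promoter (chr4:97581693-97581992, plus strand) 5.
Neurod2: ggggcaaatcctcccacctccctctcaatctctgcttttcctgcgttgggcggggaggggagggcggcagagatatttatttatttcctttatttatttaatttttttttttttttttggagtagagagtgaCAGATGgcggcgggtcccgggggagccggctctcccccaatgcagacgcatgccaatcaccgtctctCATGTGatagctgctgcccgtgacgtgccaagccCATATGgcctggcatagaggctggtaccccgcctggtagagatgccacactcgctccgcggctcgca
Nr4a2: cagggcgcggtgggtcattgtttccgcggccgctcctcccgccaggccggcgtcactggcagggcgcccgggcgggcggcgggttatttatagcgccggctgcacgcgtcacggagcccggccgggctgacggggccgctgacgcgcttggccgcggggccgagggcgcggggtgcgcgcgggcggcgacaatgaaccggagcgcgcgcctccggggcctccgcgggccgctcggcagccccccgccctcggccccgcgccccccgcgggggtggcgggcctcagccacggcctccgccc
Nfia: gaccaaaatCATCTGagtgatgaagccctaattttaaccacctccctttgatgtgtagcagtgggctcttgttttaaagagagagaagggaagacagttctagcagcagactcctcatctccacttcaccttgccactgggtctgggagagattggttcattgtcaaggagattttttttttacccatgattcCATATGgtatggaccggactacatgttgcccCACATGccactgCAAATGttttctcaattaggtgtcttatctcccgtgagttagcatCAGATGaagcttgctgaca

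A promoter was matched for 23 of the 31 genes. Of these 23, 11 (47.8%) held at least 1 E-box, beside 72.1% of 27025 promoters of the same length. The CArG box, the site of SRF, which the series title names, was in none of the 23 and in 1.57% of all promoters. The layer gene promoters had a median GC content of 63.3% and a median of 20 CpG dinucleotides, against 52.7% and 7 over all promoters. A single start per gene was searched, and for some genes, such as Nfia and Sox5, it lies inside the gene. Other starts were not searched. A match, or the lack of one in this window, describes only these letters.

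Among the deep layer genes, 3 of 12 did not overlap between the groups, and the median log2 fold change was -0.25. Ldb2 (gene number 16826, chr5:44435955-44799759), a cofactor that joins LIM-domain transcription factors into complexes, was at 112, 122 and 102 CPM in Control and at 82.3, 85.2 and 89.1 CPM in CAP1-KO. Every CAP1-KO library lay below the lowest Control library, which was FF4. The mean was 76.4% of Control, 112 ± 9.83 CPM in Control against 85.5 ± 3.41 CPM in CAP1-KO (SD, n = 3), and the log2 fold change was -0.38 (SE 0.07, adjusted p = 0.0559), the smallest adjusted p of the 31. Against FF4 alone the difference was -0.26 (SE 0.07, adjusted p = 0.403). In the authors' deposited table Ldb2 was the only layer gene with an FDR under 0.05 (log2 fold change -0.39, FDR 0.0337), where 0.412% of all listed genes were lower and 0.401% higher at that FDR.

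Nr4a2 (gene number 18227, chr2:57106830-57124003), an orphan nuclear receptor found in subplate and layer VI neurons and also known as an activity-induced gene, was at 91.6, 95.8 and 56.9 CPM in Control and at 41.9, 51.4 and 51.2 CPM in CAP1-KO. FF4 lay near the CAP1-KO libraries and far below FF1 and FF2, but the groups did not overlap. Its log2 fold change was -0.71 (SE 0.19, adjusted p = 0.107), and CAP1-KO reached 59.2% of the Control mean and 84.7% of FF4. It fell against FF1 and FF2, with a log2 fold change of -0.95 (SE 0.09, adjusted p = 0.000226). FCRE3 was the lowest of the 3 CAP1-KO libraries, and the Control SD was 21.4 CPM against 5.43 CPM in CAP1-KO.

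Bcl11b (gene number 58208, chr12:107910403-108004145), the zinc-finger factor of subcortical projection neurons that is also abundant in striatal neurons, was at 383, 376 and 364 CPM in Control and at 356, 315 and 341 CPM in CAP1-KO. FCRE3 was close under FF4, and the groups did not overlap. The log2 fold change was -0.15 (SE 0.06, adjusted p = 0.176) against all Control libraries and -0.11 against FF4. Against FF1 and FF2 it was -0.17, and Bcl11b fell there with the largest adjusted p of the 24 called genes (0.0447).

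Tbr1 (gene number 21375, chr2:61802863-61814114), the T-box factor of layer VI corticothalamic neurons, was at 332, 335 and 217 CPM in Control and at 236, 219 and 244 CPM in CAP1-KO. FF4 was the lowest of all 6 libraries, so the groups overlapped. Against all Control libraries the log2 fold change was -0.31 (SE 0.16, adjusted p = 0.285), against FF1 and FF2 it fell by 0.52 on the log2 scale, and against FF4 it was 0.10. Fezf2 (gene number 54713, chr14:12338992-12346803), which specifies layer V neurons projecting to the spinal cord and brainstem, was at 96.2, 107 and 60.4 CPM in Control and at 64.0, 59.6 and 64.7 CPM in CAP1-KO. FF4 lay within the CAP1-KO range. The difference was -0.69 against FF1 and FF2, where it passed (adjusted p = 0.000201), and 0.05 against FF4. Sox5, which controls the sequence in which deep layer neurons form, was at 211, 228 and 158 CPM in Control and at 186, 148 and 181 CPM in CAP1-KO. Again FF4 was within the CAP1-KO range, and the log2 difference from all Control libraries was -0.20. Against FF1 and FF2 Sox5 fell by 0.36 on the log2 scale.

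Foxp2 (gene number 114142, chr6:14901349-15441977), a forkhead factor of layer VI neurons that is also strong in striatum, was at 49.9, 48.5 and 83.5 CPM in Control and at 91.4, 76.1 and 76.9 CPM in CAP1-KO. With Unc5d it was 1 of the 2 layer genes whose log2 fold change was positive. FF4 was the high Control library here and lay among the CAP1-KO libraries. Its log2 fold change was 0.46 (SE 0.20, adjusted p = 0.21) against all Control libraries, 0.71 (SE 0.08, adjusted p = 0.000464) against FF1 and FF2, where it rose, and -0.04 against FF4. Tle4, a corepressor of corticothalamic neurons, was at 166, 179.7 and 152 CPM in Control and at 165, 147 and 158 CPM in CAP1-KO. Its groups overlapped, and its differences were -0.08 against all Control libraries and 0.05 against FF4.

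Nfia (gene number 18027, chr4:97578066-98118876) and Nfib (gene number 18028, chr4:82290173-82506751) encode nuclear factor I proteins, which act in deep layer neurons and in the onset of glial fates. Nfia was at 194, 196 and 124 CPM in Control and at 155, 143 and 155 CPM in CAP1-KO. Nfib was at 987, 990.2 and 643 CPM in Control and at 849, 708 and 836 CPM in CAP1-KO. In both genes FF4 was the lowest of the 6 libraries and every CAP1-KO library lay between FF4 and the other two Control libraries. Nfia differed by -0.37 (SE 0.05, adjusted p = 0.000879) from FF1 and FF2 and by 0.28 (SE 0.07, adjusted p = 0.347) from FF4, on the log2 scale. Nfib differed by -0.31 (SE 0.08, adjusted p = 0.0146) from FF1 and FF2 and by 0.31 (SE 0.11, adjusted p = 0.533) from FF4. Against all 3 Control libraries neither passed (log2 fold changes -0.15 and -0.11).

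In the remaining deep layer genes, Zfpm2 and Hs3st4, FCRE4 was just above FF4, so the groups overlapped. Zfpm2, a cofactor of GATA factors found in corticothalamic neurons, was at 37.2 ± 5.65 CPM in Control against 29.4 ± 1.56 CPM in CAP1-KO (SD, n = 3), with a log2 fold change of -0.32 (SE 0.11, adjusted p = 0.147). Hs3st4, an enzyme that sulfates heparan chains and marks layer VI, was at 95.7 ± 13.7 CPM in Control against 76.9 ± 4.63 CPM in CAP1-KO (SD, n = 3), with a log2 fold change of -0.30 (SE 0.10, adjusted p = 0.145). Both fell against FF1 and FF2 (by 0.45 and by 0.42 on the log2 scale) and differed little from FF4 (-0.06 and -0.07).

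**Figure D2:**
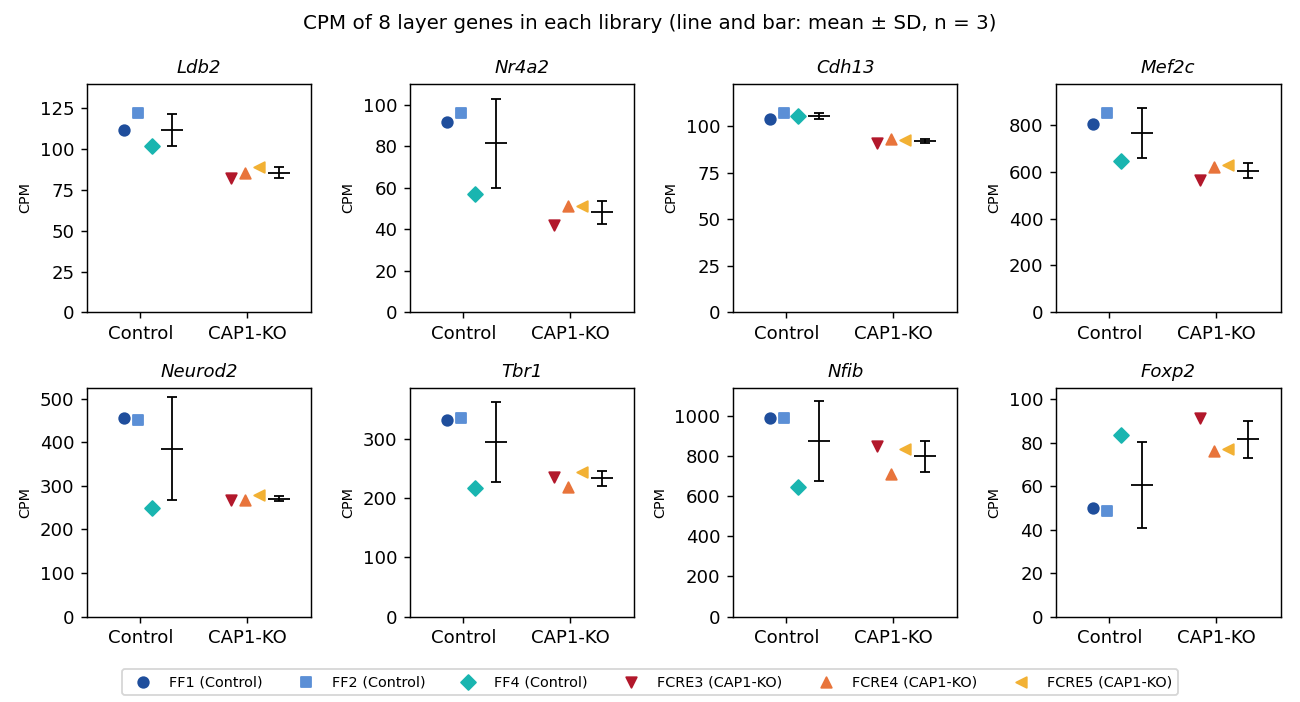
CPM of 8 layer genes in each library, Control at left and CAP1-KO at right of each panel, with the mean and SD of the 3 libraries (n = 3) as a line and bar. Ldb2, Nr4a2, Cdh13 and Mef2c have every CAP1-KO library below every Control library. For Neurod2, Tbr1, Nfib and Foxp2 the FF4 library lies on the CAP1-KO side of FF1 and FF2. In Nr4a2 and Mef2c, too, FF4 lies nearer the CAP1-KO libraries than FF1 and FF2.

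Among the 10 upper layer genes the median log2 fold change was -0.29, and 4 did not overlap between groups. Cux2 (gene number 13048, chr5:121857962-122050415), a homeobox factor of layers II to IV that shapes dendrites, was at 198, 202 and 139 CPM in Control and at 137, 129 and 133 CPM in CAP1-KO. FF4 was close above the highest CAP1-KO library. The log2 fold change was -0.41 (SE 0.13, adjusted p = 0.133), and Cux2 fell against FF1 and FF2 by 0.59 on the log2 scale. Its paralog Cux1 was at 162, 158 and 142 CPM in Control and at 164, 139 and 155 CPM in CAP1-KO. Its groups overlapped, with FCRE3 the highest and FCRE4 the lowest library. The log2 fold change of Cux1 was -0.01 against all Control libraries and -0.07 against FF1 and FF2, and its difference from Cux2 was not tested.

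The POU-domain factors Pou3f1, Pou3f2 and Pou3f3 promote the production and migration of upper layer neurons. Pou3f1 was at 106, 110.2 and 69.9 CPM in Control and at 62.5, 65.9 and 68.1 CPM in CAP1-KO. Pou3f2 was at 214, 203 and 142 CPM in Control and at 155, 140.0 and 158 CPM in CAP1-KO. Pou3f3 was at 340.0, 335 and 239 CPM in Control and at 278, 263 and 282 CPM in CAP1-KO. In all 3 genes FF1 and FF2 were the highest libraries, and FF4 lay above the CAP1-KO libraries for Pou3f1, among them for Pou3f2 and below them for Pou3f3. The log2 fold changes against all Control libraries were -0.51, -0.28 and -0.13, each short of the threshold. Against FF1 and FF2 all 3 fell, by 0.72, by 0.46 and by 0.30 on the log2 scale. Differences among the 3 paralogs were not tested.

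Rorb, a nuclear receptor of layer IV, was at 51.3, 57.3 and 39.2 CPM in Control and at 46.8, 37.2 and 47.7 CPM in CAP1-KO. FF4 lay within the CAP1-KO range, and Rorb passed neither against all Control libraries nor against FF1 and FF2. Its log2 fold change against those 2 libraries was -0.31 (SE 0.10, adjusted p = 0.0562). Lhx2, a LIM homeobox factor of cortical progenitors and upper layer neurons, was at 160.5, 154 and 92.7 CPM in Control and at 97.5, 102 and 103 CPM in CAP1-KO. FF4 was the lowest library. Lhx2 fell against FF1 and FF2, by 0.63 on the log2 scale, and stood at 0.12 against FF4.

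Plxnd1, a receptor for semaphorins, was at 199, 192 and 164 CPM in Control and at 139, 163 and 144 CPM in CAP1-KO. FCRE4 and FF4 were nearly equal, so the groups were barely separated. The log2 fold change was -0.31 (SE 0.09, adjusted p = 0.114). Inhba, the beta-A subunit of activin and inhibin, had the fewest reads of the 31, down to 346 in 1 library, which gives a counting error of 5.38%. It was at 14.7, 16.0 and 11.6 CPM in Control and at 9.73, 9.58 and 11.5 CPM in CAP1-KO. FCRE5 was just under FF4, and the log2 fold change was -0.42 (SE 0.12, adjusted p = 0.12). Unc5d, a netrin receptor of migrating upper layer neurons, was at 88.9 ± 9.58 CPM in Control against 92.6 ± 3.81 CPM in CAP1-KO (SD, n = 3), and its log2 fold change was 0.06 (SE 0.08, adjusted p = 0.663). It differed by 0.19 from FF4, every CAP1-KO library being higher.

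**Figure D3:**
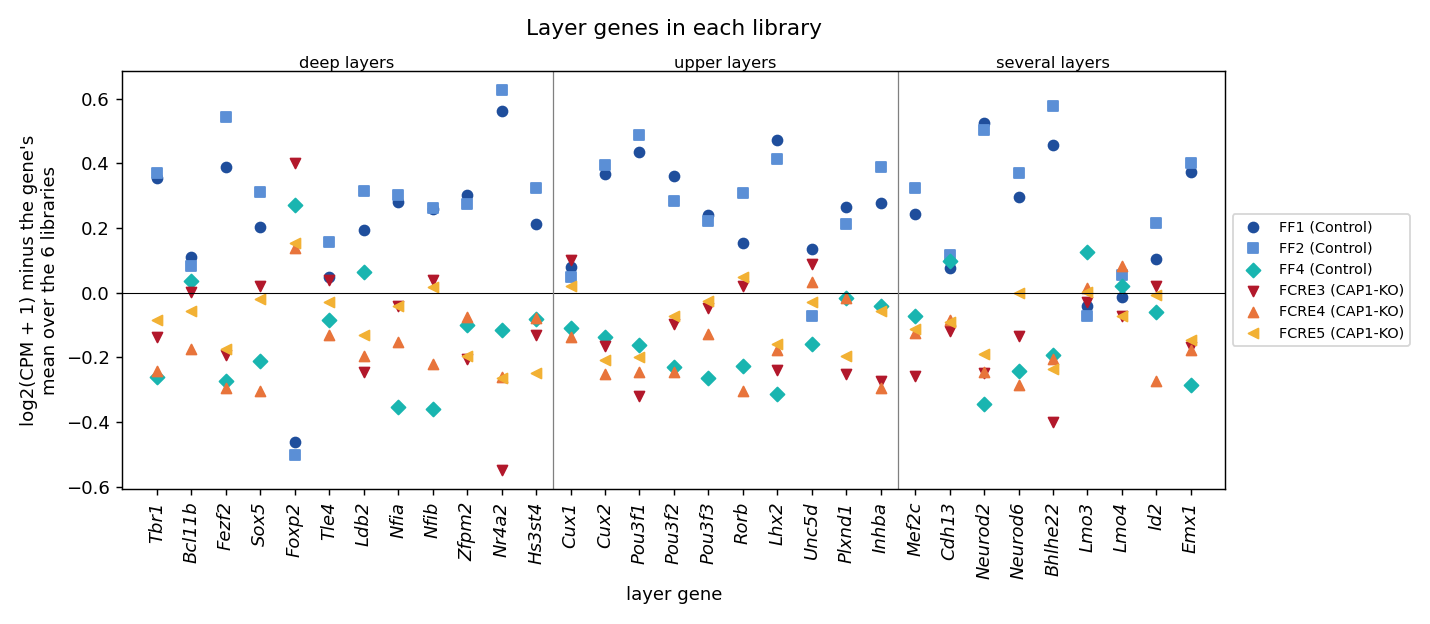
Level of the 31 layer genes in each library, as log2(CPM + 1) minus the gene's mean over the 6 libraries, with deep layer, upper layer and several-layer genes from left to right. FF1 and FF2 lie at the top for most genes and FF4 lies with the CAP1-KO libraries, below both other Control libraries in 27 of 31 genes, while Foxp2 has the opposite order.

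Of the 9 genes of several layers, 3 did not overlap and the median log2 fold change was -0.28. Cdh13 (gene number 12554, chr8:118140017-119324929), a cadherin held in the membrane by a lipid anchor, was at 104, 107 and 106 CPM in Control and at 90.7, 92.8 and 92.4 CPM in CAP1-KO. Both groups were tight and clearly apart, 105 ± 1.42 CPM in Control against 92.0 ± 1.12 CPM in CAP1-KO (SD, n = 3). The log2 fold change was -0.20 (SE 0.04, adjusted p = 0.0749), and it was nearly the same against FF1 and FF2, where it fell by 0.19 on the log2 scale, and against FF4 alone, where it was -0.20 (SE 0.06, adjusted p = 0.468). Mef2c (gene number 17260, chr13:83504017-83667079), a MADS-box factor that regulates synapse number and also acts in interneurons, was at 802, 849 and 645 CPM in Control and at 567, 621 and 627 CPM in CAP1-KO. FF4 was the lowest Control library and lay just above the CAP1-KO libraries. The log2 fold change was -0.33 (SE 0.10, adjusted p = 0.132).

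Bhlhe22 (gene number 59058, chr3:18054325-18057514), a helix-loop-helix repressor that controls axon targeting, was at 389, 423 and 248 CPM in Control and at 214, 245 and 240.4 CPM in CAP1-KO. FF4 was barely above FCRE4. Its log2 fold change was -0.56 (SE 0.18, adjusted p = 0.136), against FF1 and FF2 it fell by 0.80 on the log2 scale, and against FF4 the difference was -0.09. Neurod2 (gene number 18013, chr11:98325415-98329645), a helix-loop-helix factor of postmitotic projection neurons, was at 457, 450.2 and 249.9 CPM in Control and at 267, 268 and 278 CPM in CAP1-KO. FF4 was the lowest library, at 55.1% of the mean of FF1 and FF2. Neurod2 fell against those with a log2 fold change of -0.74 (SE 0.04, adjusted p = 1.71e-05), the smallest p of the 31, and differed by 0.12 from FF4. Against all Control libraries its log2 fold change was -0.46 (SE 0.21, adjusted p = 0.245).

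Neurod6, a close relative in the same neurons, was at 655, 689 and 451 CPM in Control and at 486, 437 and 533 CPM in CAP1-KO. FF4 lay within the CAP1-KO range, and Neurod6 fell by 0.47 on the log2 scale against FF1 and FF2. Emx1, a homeobox gene of the dorsal telencephalon whose lineage gives rise to projection neurons, was at 29.0, 29.6 and 18.0 CPM in Control and at 19.6, 19.5 and 19.9 CPM in CAP1-KO. FF4 was the lowest library, and the differences were -0.55 against FF1 and FF2, where Emx1 fell, and 0.12 against FF4. Lmo4, a LIM-only adaptor of callosal and layer V neurons, was at 226 ± 5.30 CPM in Control against 220.3 ± 13.8 CPM in CAP1-KO (SD, n = 3). Lmo3, its relative, was at 145 ± 10.9 CPM in Control against 144 ± 2.19 CPM in CAP1-KO (SD, n = 3). Id2, an inhibitor of helix-loop-helix factors, was at 237 ± 22.4 CPM in Control against 211 ± 23.0 CPM in CAP1-KO (SD, n = 3). None of these 3 passed in any of the comparisons with all Control libraries, with FF1 and FF2 or with FF4, and Lmo3 was highest in FF4.

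Most of the Control spread was the distance of FF4 from FF1 and FF2. FF4 was below both FF1 and FF2 in 27 of the 31 genes (87.1%), beside 48.4% of all genes tested. It was under 80% of their mean in 20 of the 31, which was not counted over all genes. The median log2 difference of FF4 from FF1 and FF2 was -0.46, and over all genes it was -0.03. The SD over the 3 Control libraries was larger than that over the CAP1-KO libraries in 27 of 31 genes (87.1%), beside 60.1% of all genes. The median SD on the log2 scale was 0.28 in Control, 0.08 in CAP1-KO and 0.04 between FF1 and FF2. Taking each gene's mean over the 6 libraries as 0, the median of the 31 was 0.26 in FF1, 0.31 in FF2 and -0.14 in FF4, then -0.13 in FCRE3, -0.18 in FCRE4 and -0.07 in FCRE5. With the Xist level as a covariate in the fit against all Control libraries, the median log2 fold change of the 31 was -0.40 and 0 passed. FF2 was the only Control library with a high Xist level, so that fit sets CAP1-KO mainly against FF2. The distance of FF4 from FF1 and FF2 also enters the covariate, so no effect of sex can be read from it.

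Many other genes of projection neurons split the libraries in the same way, but less uniformly. Of 22 such genes, 21 were tested. FF4 was below both FF1 and FF2 in 14 of these (66.7%), beside 87.1% of the layer genes. The median deviation from the 6-library mean was 0.24 in FF1, 0.18 in FF2 and 0.0023 in FF4. It was -0.11 in FCRE3, -0.13 in FCRE4 and -0.07 in FCRE5. Cplx3, a subplate gene, had no reads in any library. Against all Control libraries 1 fell, Crym, a thyroid hormone binding protein of layers V and VI, at 50.2, 48.9 and 41.6 CPM in Control and at 28.5, 34.2 and 30.98 CPM in CAP1-KO. Its groups did not overlap and its log2 fold change was -0.57 (SE 0.09, adjusted p = 0.0376). The median of the 21 was -0.26, against FF1 and FF2 12 fell and 1 rose (Pcp4), with a median of -0.38, and against FF4 alone none passed, with a median of -0.09. The 2 with most reads were Zbtb18, a transcriptional repressor, at 1035, 1124 and 800.1 CPM in Control and at 789.9, 717 and 868 CPM in CAP1-KO, and Plxna4, a semaphorin receptor, at 587, 603 and 428 CPM in Control and at 436, 443 and 460.0 CPM in CAP1-KO. Both had FF1 and FF2 highest and FF4 with or near the CAP1-KO libraries.

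Genes of neighbouring forebrain regions had the opposite order of libraries, and their part in the layer gene result was not tested. The 14 striatal genes, none at 0 in any library, summed to 519, 481 and 681 CPM in Control, against 679, 603 and 607 CPM in CAP1-KO. FF4 and the CAP1-KO libraries were thus all above FF1 and FF2, and the median log2 difference of FF4 from FF1 and FF2 was 1.20. Against all Control libraries 1 of 14 was called, Ppp1r1b, a signalling protein of striatal neurons and one of the 2 with most reads, which fell, with a log2 fold change of -0.63 (SE 0.07, adjusted p = 0.00689). The other, Meis2, a homeobox factor, was at 349, 312 and 328 CPM in Control and at 368, 317 and 327 CPM in CAP1-KO. Beside FF1 and FF2, 11 rose and 1 fell, and against FF4 1, the neuropeptide precursor Tac1, fell, with a log2 fold change of -1.14 (SE 0.12, adjusted p = 0.00824).

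The 14 interneuron genes, none at 0 in any library, summed to 771, 672 and 1026 CPM in Control, against 1043, 968 and 969 CPM in CAP1-KO. FF4 again lay with the CAP1-KO libraries, above FF1 and FF2. Against all Control libraries 1 was called, Npas1, a transcription factor of interneurons, which fell, with a log2 fold change of -0.81 (SE 0.14, adjusted p = 0.0466). Gad1, the enzyme that makes GABA, was at 95.5, 80.8 and 184 CPM in Control and at 162, 167 and 145 CPM in CAP1-KO, and Dlx1, a homeobox factor of these cells, at 110.4, 91.6 and 138 CPM in Control and at 153, 123 and 138 CPM in CAP1-KO. Set against FF1 and FF2, 8 rose and 2 fell, and against FF4 none passed. The 4 tested of 6 septal and basal forebrain genes, with Lhx8 at 0 in all libraries, had none called against all Control libraries. The list summed to 56.6, 29.3 and 126 CPM in Control, against 115, 113 and 87.2 CPM in CAP1-KO, FF4 being the highest.

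Genes of the progenitors that give rise to projection neurons split the libraries in another way. The 6 intermediate progenitor genes, of which 5 were tested, summed to 214, 184.5 and 135 CPM in Control, against 181, 140 and 182 CPM in CAP1-KO, with FF4 and FCRE4 the lowest. None of the 5 passed against all Control libraries, and those with most reads were Insm1 and Eomes (log2 fold changes -0.21 and -0.17). The 11 genes of radial glia and astrocytes had a median of -0.03 and none passed. Fabp7 and Vim had most reads in that list, at log2 fold changes of 0.06 and 0.21.

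**Figure D4:**
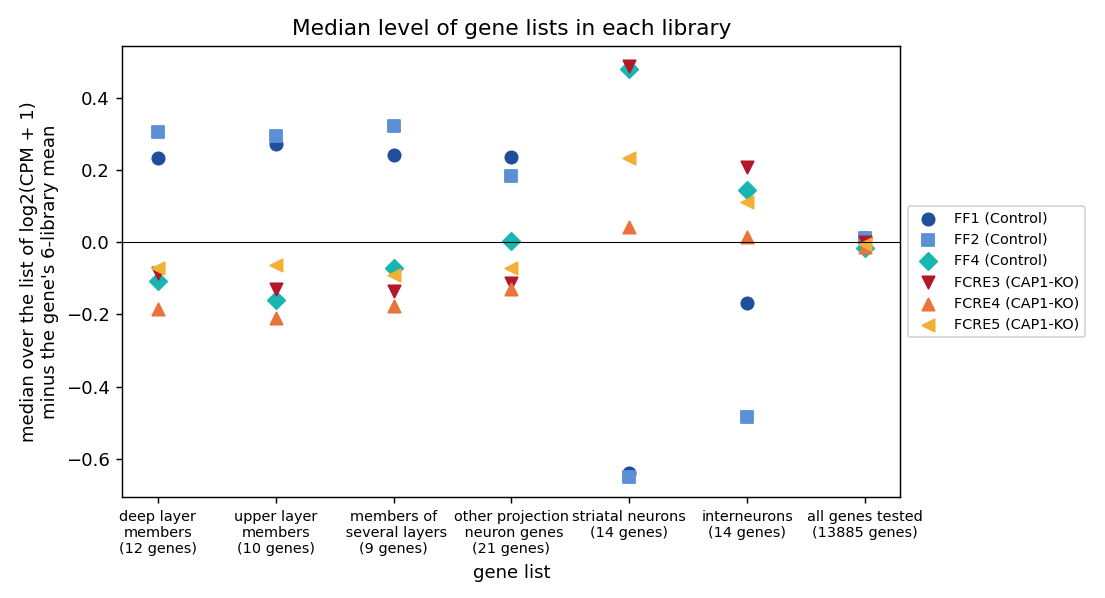
Median over each gene list of log2(CPM + 1) minus the gene's 6-library mean, 1 point per library, for the 3 layer gene groups, other projection neuron genes, striatal and interneuron genes and all genes tested. FF1 and FF2 are highest for the layer genes and lowest for the striatal and interneuron lists, with FF4 among or near the CAP1-KO libraries in each, while all genes tested stay near 0 in every library.

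The layer genes were also compared with each other, by taking the median layer gene of each library as the reference, a description chosen with the results known. Relative to it, 4 of the 31 were lower in every CAP1-KO library than in every Control library: Nr4a2 (by -0.45 on the log2 scale), Pou3f1 (-0.24), Cux2 (-0.15) and Inhba (-0.15). Another 4 were higher in every CAP1-KO library: Unc5d (0.33), Cux1 (0.26), Pou3f3 (0.14) and Nfia (0.11). Of all genes on this scale, 0.864% did not overlap with CAP1-KO lower and 22.6% with CAP1-KO higher. The reference comes from the 31 genes themselves, so layer genes must lie on both sides of it. It was also lower in CAP1-KO than in FF1 and FF2, which moves other genes up on this scale. The shares of all genes are therefore no yardstick for these counts. On this scale Cux1 and Cux2 stand on opposite sides, as do Pou3f1 and Pou3f3, and these differences were not tested.

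Levels between genes can be set side by side per kilobase of exon. In Control, Neurod6 was highest at 278 ± 59.9 CPM per kb (SD, n = 3), and its range did not reach that of the next gene. Neurod2 (123 CPM per kb), Lmo4 (112), Bhlhe22 (106), Mef2c (105), Id2 (97.3), Nfib (94.6) and Tbr1 (72.0) followed, each overlapping its neighbour in this order. A gap without overlap separated Tbr1 from Bcl11b (46.2), from which 17 genes ran down to Emx1 (16.4) with overlapping ranges. Cux1 (9.80) and Unc5d (9.64) formed a pair below these, Foxp2 (6.25), Zfpm2 (5.86) and Rorb (5.21) came next, and Inhba was lowest at 2.21 CPM per kb. In CAP1-KO the order was similar at both ends, but Lmo4 and Nfib stood 2nd and 3rd while Neurod2 was 5th and Bhlhe22 7th.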

How the data were processed

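RNA was measured in cerebral cortex of 3 Control and 3 CAP1-KO embryos as strand-specific poly(A) libraries. Per the submitters' processing notes, the authors named STAR, edgeR and the builds GRCm38 and mm10, without versions. Not given in the sources used here: the read counter, the annotation, the filters and how reads of paralogs or overlapping genes were divided. The deposited table held 27179 genes with log2 normalized values for each library and the deposited results of the authors' own test (log2 fold change, F score, p-value and FDR, per the file headers).

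Removing the shared lowest value (0.0584 CPM) from the antilog gave CPM whose values were whole multiples of 1 read. Of values up to 200 reads, 100.0% came within 0.01 of a whole read. Library columns carry the genotype but not the labels' replicate numbers. The labels call the libraries biological replicates and give no litter or sequencing run, so p-values measure the spread between these libraries.

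CAP1-KO was tested against Control with limma 3.58.1 (R 4.3.3, intensity trend) on log2(CPM + 1), for the 13885 genes that averaged 1 CPM or more, without covariates. P-values were adjusted by Benjamini-Hochberg over all of these, with a threshold of 0.05. Fold changes on this scale understate those of low genes. An exact permutation test of 3 against 3 libraries cannot give a p below 0.1 and was not used. The planned edgeR test was not run, because the deposited unit is log2, and limma-voom on recovered reads took its place. The fit was tested on simulated data in which no library was set apart as FF4 was, so that test does not bear on FF4.

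The 31 genes, the other gene lists and their groups were chosen with earlier results of these data known. All 31 are named, with library values for those whose groups do not overlap, whose sign changes against FF4 alone or that are layer-defining regulators. Of other lists, genes called against all Control libraries and the 2 with most reads are named. For the septal and basal forebrain, oligodendrocyte precursor, hippocampal and thalamic lists the genes with most reads are left out. A gene that this rule selects is not reported here. Exon lengths came from the GENCODE table and coordinates and promoters from RefSeq GRCm38.p6. The planned protein comparison of paralogs was not made. Plots were made in Python 3.11.15 (matplotlib 3.10.9).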

Additional observations from a re-analysis of the deposited data

How the results depend on the processing

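Tried for every layer gene were a fit of every gene with a read, a pseudocount of 0.1 CPM, median-of-ratios size factors, the deposited log2 values, the Xist level as a covariate, each library left out in turn and FF4 as the only Control library. Limma-voom on recovered reads, scaling to total reads and the library omissions within the FF4 comparison were chosen after seeing the data. Against all Control libraries the number of layer genes called was 0, and it stayed 0 under these alternatives except for 24 without FF4 (range over single omissions 0 to 24) and 1 with scaling to total reads, which moved the median of all genes up by 0.06. The adjusted p of Ldb2 ran from 0.000705 to 0.403 over the alternatives. The median log2 fold change ran from -0.42 to -0.20 over single omissions, and was -0.0273 with FF4 as the only Control library and -0.40 with the Xist covariate. The Xist fit rests mainly on FF2, the only Control library with a high Xist level. Against FF4 alone the count ran from 0 to 6 over omissions of a CAP1-KO library, 6 being without FCRE4.

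With FF4 as the only Control library 15 genes changed sign: Tbr1 0.10, Fezf2 0.0534, Sox5 0.11, Foxp2 -0.0394, Tle4 0.0454, Nfia 0.28, Nfib 0.31, Cux1 0.10, Pou3f2 0.0928, Pou3f3 0.20, Rorb 0.15, Lhx2 0.12, Neurod2 0.12, Neurod6 0.10 and Emx1 0.12. With the Xist covariate Lmo3 changed sign (0.0598), and with scaling to total reads Cux1 (0.0541), Lmo3 (0.0566) and Lmo4 (0.0254). Over single omissions Cux1 ran from -0.0696 to 0.0542, Unc5d from -0.0006 to 0.15 and Lmo3 from -0.0468 to 0.0513. The cause was not tested, and FF4, male by Xist, also differed in sex from the CAP1-KO libraries. No paired analysis was possible because the library columns do not carry the labels' replicate numbers. Counting error of the layer genes was at most 5.38% in a library, well below the Control spread of most of them.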

Other observations

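Markers of cells other than projection neurons differed between the groups as well, and their part in the layer gene values was not tested. Of 7 endothelial genes, 2 fell against all Control libraries, both receptors for VEGF: Flt1, at 18.8, 20.4 and 16.8 CPM in Control and at 9.73, 11.4 and 10.3 CPM in CAP1-KO, with a log2 fold change of -0.77 (SE 0.09, adjusted p = 0.0118) by limma, and Kdr, at 45.2, 50.9 and 45.9 CPM in Control and at 33.8, 34.6 and 38.1 CPM in CAP1-KO, with a log2 fold change of -0.40 (SE 0.07, adjusted p = 0.0462). In both the groups did not overlap. Cldn5, a tight junction protein and the other of the 2 with most reads, had a log2 fold change of -0.34, and the list had a median of -0.37. Among microglial genes, Csf1r, the receptor that these cells need to survive, had a log2 fold change of 0.56 and did not pass (adjusted p = 0.0819 by limma). The 10 microglial genes had a median of 0.52, with 1 negative value, Tmem119 (-0.06), and P2ry12 was at 0.09.

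Of 6 choroid plexus genes 4 were tested and 1 rose: Ttr, the thyroid hormone carrier of the choroid plexus, at 0.0641, 0.0595 and 0.332 CPM in Control and at 90.9, 104 and 47.0 CPM in CAP1-KO, a log2 fold change of 6.08 (SE 0.27, adjusted p = 0.000103), whose size depends on the pseudocount since Control was under 1 CPM. Aqp1, a water channel of the same epithelium, had a log2 fold change of 1.01. The 8 genes of the meninges summed to 17.9, 16.6 and 17.2 CPM in Control, against 18.3, 97.2 and 85.9 CPM in CAP1-KO, so FCRE4 and FCRE5 stood above the other 4 libraries. None of the 7 tested passed, among them Ptgds (log2 fold change 2.84) and Col3a1 (1.35). FCRE3 was at the Control level for meningeal genes but not for choroid plexus genes, whose list summed to 100.4 CPM there. The part of either tissue in the layer gene values was not tested. No gene was called among the 5 of oligodendrocyte precursors (median -0.29), the 6 of Cajal-Retzius cells (-0.08), the 3 tested of the hippocampus (0.16) or the 4 of the thalamus (0.83). Reln, the signal of Cajal-Retzius cells, was at 498, 537 and 407 CPM in Control and at 397, 425 and 419.6 CPM in CAP1-KO, with FF1 and FF2 the highest libraries. Calb2, the other of the 2 with most reads in the Cajal-Retzius list, ran the other way, with FF1 and FF2 lowest. It was at 18.6, 12.3 and 27.3 CPM in Control and at 24.7, 29.7 and 27.9 CPM in CAP1-KO. Of the 6 log2 fold changes against all Control libraries, 4 were negative, and that of Calb2 was 0.54.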
